A study of Mus musculus with 21 samples.

Results

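The enzymes of the methionine cycle and of transsulfuration were followed by their mRNAs in mouse liver. The set was 10 genes, *Mat1a*, *Mat2a*, *Mat2b*, *Gnmt*, *Ahcy*, *Bhmt*, *Bhmt2*, *Mtr*, *Cbs* and *Cth*, chosen by name and matched through GENCODE M21 (GRCm38) to 10 of the 46078 gene identifiers in the count table. All 10 passed the filter on low counts, which kept 14370 genes. The 21 bulk poly(A) RNA libraries came from a cross of 2 genotypes with 3 diets. KO is the knockout of *Cse* (gene symbol *Cth*), on a mixed 129/C57BL/6 background, and WT is the name the labels give the comparison animals, which the study's text calls heterozygous (*Cse*+/−). Whether both alleles were intact in the WT group was not tested. The diets were a defined amino acid control diet (CTR) and the same diet with all cysteine (noCys) or all tryptophan (noTrp) taken out and the remaining amino acids raised in proportion. All animals were males of at least 9 weeks on calorie restriction, and livers were taken 2 days after the switch from restricted control diet. The WT groups held 3 libraries on CTR, 4 on noCys and 2 on noTrp, and the KO groups 4 on CTR, 3 on noCys (replicates 1, 3 and 4) and 5 on noTrp, each a biological replicate per its title.

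In the methionine cycle, methionine adenosyltransferases join methionine to ATP and form S-adenosylmethionine, the donor for most methylation reactions. Spent donor becomes S-adenosylhomocysteine, which is hydrolysed to homocysteine. Homocysteine is then either methylated back to methionine or condensed with serine to cystathionine, from which cystathionine γ-lyase releases cysteine. The liver carries most of this flux and, unlike most tissues, uses betaine as well as methylfolate to remethylate homocysteine.

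Total counts ran from 8889951 to 27230852 per library, and the 10 genes together took 0.904% to 1.67% of them. Values below are CPM, counts set relative to the library's total after TMM scaling, unless another unit is named. All marker sums, here and in later paragraphs, are the exception: they are CPM of the library's total without TMM scaling. Whether groups that were apart in a marker sum stay apart after TMM scaling was not tested. Markers fixed by list showed liver tissue: none of the 8 hepatocyte markers was at 0 in any group, whereas the summed level of 4 muscle markers was at most 2.66 CPM and that of 5 adipocyte markers at most 6.98 CPM. The summed hepatocyte markers, without TMM scaling, were lower in KO noCys (70329, 47636 and 51486 CPM) than in WT noCys (89286 to 100133 CPM) and KO CTR (74352 to 81636 CPM). Between KO noCys and WT noCys the zonal sums were apart too, and in opposite directions: 8 pericentral markers were at 14729 to 15159 against 10377 to 13021 CPM, and 8 periportal markers at 9283 to 11488 against 11653 to 12723 CPM. The 5 cholangiocyte markers summed to 17.2 to 20.3 in KO noCys and 32.1 to 54 CPM in WT noCys. These 3 sums overlapped between KO noCys and KO CTR. The 5 dividing-cell markers, at 0.787 to 1.51 CPM in KO noCys, were below both WT noCys (1.96 to 2.24 CPM) and KO CTR (1.6 to 2.84 CPM), and the 5 pancreas markers were above KO CTR (14.9 to 17.6 against 11.3 to 13.8 CPM). In bulk tissue, fewer cells of a type and less of these RNAs per cell cannot be told apart, and the part of these shifts in the results below was not tested.

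The set holds 2 pairs of paralogs, and their sequences show how far reads from each can be told apart. *Bhmt* and *Bhmt2* both lie on the minus strand of chromosome 13. Their longest identical coding run was 59 bases, shorter than the 61 bases of a read end, and the closest pair of 61-base coding windows, in exon 7 of both genes, differed at 1 base. The windows are printed 5′ to 3′ in the sense direction from GRCm38, with the differing base in capitals. The first is chr13:93620181-93620241 and the second chr13:93662401-93662461.
Bhmt: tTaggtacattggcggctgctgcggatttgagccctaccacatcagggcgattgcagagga
Bhmt2: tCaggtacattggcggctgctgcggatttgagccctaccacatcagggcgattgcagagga

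The adenosyltransferase genes *Mat1a* (chromosome 14, plus strand) and *Mat2a* (chromosome 6, minus strand) were further apart. Their longest identical coding run was 15 bases, and the closest 61-base coding windows differed at 8 bases, in capitals below. The window joins exons 4 and 5 of *Mat1a* (chr14:41111121-41111156 and chr14:41114217-41114241) and exons 3 and 4 of *Mat2a* (chr6:72436995-72437030 and chr6:72436505-72436529).
Mat1a: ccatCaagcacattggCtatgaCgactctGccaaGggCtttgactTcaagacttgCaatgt
Mat2a: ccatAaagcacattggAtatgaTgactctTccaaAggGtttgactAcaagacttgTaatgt

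Sharing with other genes was uneven. Of all 61-base windows along the transcript with the longest coding sequence, 0% recurred in another annotated transcript for *Cth*, *Mat1a*, *Mat2b*, *Gnmt* and *Mtr*, 0.665% for *Cbs*, 3.86% for *Bhmt2* and 10.8% for *Mat2a*. The share was 56.7% for *Bhmt*, mostly with *Gm5096* and *Bhmt-ps1*, and 75.7% for *Ahcy*, mostly with *Gm4737*. Counts of *Bhmt* and *Ahcy* are therefore less certain than the others, since the handling of reads that match several genes was not given in the sources used here. *Gm5096* averaged 111 to 196 CPM over the 6 groups and *Gm4737* 146 to 219 CPM. *Mat2a* also overlaps the exons of an opposite-strand gene, *Particl*, and *Bhmt* those of *Gm15622*, and the strand setting of the counting was likewise not given.

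Promoter windows from RefSeq (GRCm38.p6), 250 bases before to 50 bases after the start, were present for 8 of the 10 genes, not for *Cth* and *Mat1a*. They were searched on both strands for the letters of 4 motifs. The amino acid response letters TGATGNAA were found in 0 of the 8 windows and in 3.97% of all 32851 windows. The antioxidant response letters TGACNNNGC were found in 0 of 8 and in 12.4% of all. The E-box CACGTG was found in *Cbs* alone, from base −229, and in 7.15% of all windows. The nuclear receptor core letters AGGTCA was found in *Bhmt* at 3 places, in *Gnmt* and *Ahcy* once each, and in 16.3% of all. These are matches of letters, not sites of binding. Exon-free stretches with such a match are shown for *Bhmt* (chr13:93637962-93638008) and *Cbs* (chr17:31637239-31637455), the first called between noCys and CTR in the knockout and both between noCys and noTrp, with the matched letters in capitals and both genes on the minus strand. The *Bhmt* stretch holds 1 of its 3 matches, and the other 2 lie nearer the start, outside the bases shown.
Bhmt: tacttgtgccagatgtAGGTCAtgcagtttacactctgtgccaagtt
Cbs: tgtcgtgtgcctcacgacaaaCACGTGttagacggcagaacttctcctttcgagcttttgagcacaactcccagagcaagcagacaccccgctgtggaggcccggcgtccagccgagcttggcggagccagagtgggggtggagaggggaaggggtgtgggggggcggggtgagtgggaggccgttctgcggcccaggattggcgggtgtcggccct

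Levels of different genes were compared per kilobase of the longest annotated transcript. In WT CTR, *Gnmt* stood highest at 1573 ± 173 CPM per kb (SD, n = 3), followed by *Mat1a* at 984 ± 156 and *Bhmt* at 778 ± 107, whose ranges overlapped each other. *Ahcy* followed at 425 ± 47.8 CPM per kb. *Cth* (122 ± 35.5) and *Bhmt2* (101 ± 12.9) overlapped, and *Cbs* was at 63.9 ± 5.79 CPM per kb. *Mat2a* (27.6 ± 2.52), *Mat2b* (16.4 ± 0.975) and *Mtr* (0.28 ± 0.0679) closed the order without overlap. The betaine-dependent and vitamin B12-dependent routes of remethylation thus differed widely in mRNA level, with *Bhmt* above *Mtr* in every library. The order of *Bhmt* depends on its length: the longest annotated transcript is a retained intron, and per kb of the longest coding transcript it was 1238 CPM, above *Mat1a*. In KO noCys the means placed *Mat1a* (2196 ± 328 CPM per kb, n = 3) above *Gnmt* (1880 ± 238), with overlapping ranges.

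**Figure D1:**
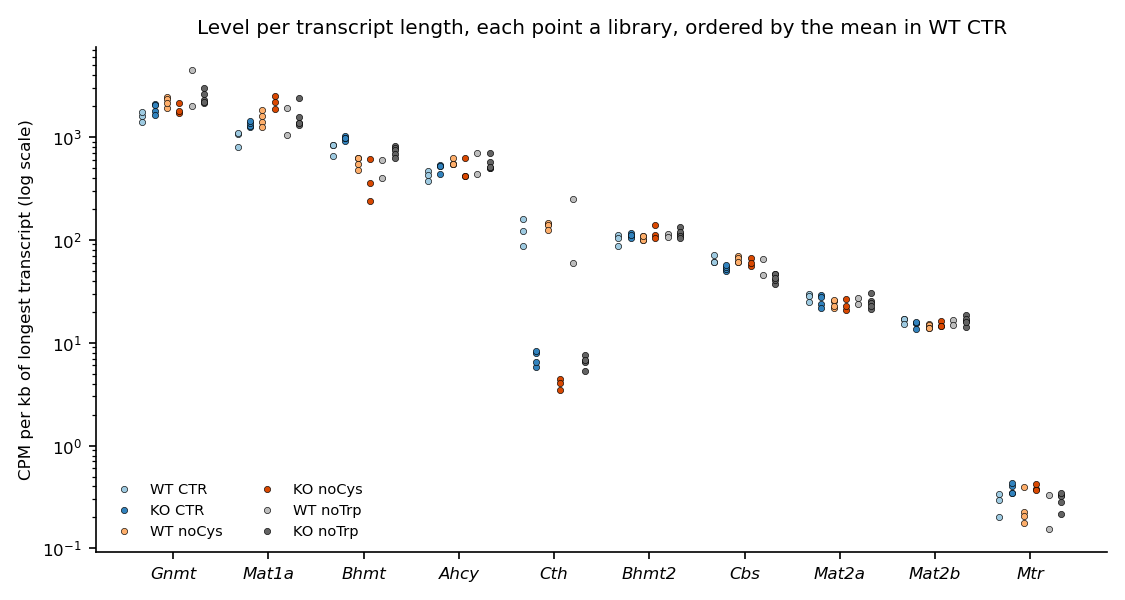
Level of the 10 genes per kilobase of the longest annotated transcript (log axis), each point a library, coloured by group. *Gnmt* and *Mat1a* are at the top and *Mtr* at the bottom in all 6 groups, and *Cth* falls from 122 CPM per kb in WT CTR to between 4 and 7.13 CPM per kb in the means of the KO groups.

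*Cth*, which encodes the deleted enzyme, served as a check of the genotype labels. In WT CTR it was at 286, 221 and 157 CPM, in WT noCys at 260, 263, 253 and 225 CPM, and in WT noTrp at 452 and 108 CPM. In KO CTR it was at 14.6, 10.5, 11.7 and 15 CPM, in KO noCys at 8.12, 6.34 and 7.33 CPM, and in KO noTrp at 9.61 to 13.7 CPM with a median of 12 CPM. Every KO library was below every WT library. The log2 fold change of KO over WT was −4.11 (standard error, SE, 0.31, adjusted p = 4.18e-07) on CTR, −5.12 (SE 0.37, adjusted p = 1.51e-08) on noCys and −4.56 (SE 0.31, adjusted p = 4.09e-08) on noTrp. With only 2 WT noTrp libraries, the last value was −5.25 without replicate 2 of that group and −3.18 without replicate 1, each resting on the 1 WT library left. Residual counts were 72 to 294 per KO library, and whether they come from the targeted allele was not tested. Within the knockout, residual *Cth* was lower on noCys than on CTR in every library, at −0.84 on the log2 scale (SE 0.33), which missed the threshold (adjusted p = 0.077). It was called by DESeq2 (adjusted p = 0.0317), with no filter on low counts (adjusted p = 0.0446) and with only the compared groups fitted (adjusted p = 0.0105).

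On the control diet, *Cth* was the only member called between genotypes, where 0.32% of all genes were called. *Cbs*, which condenses homocysteine with serine and sits just before *Cth*, was at 380, 440 and 375 CPM in WT CTR and at 312, 321, 338 and 358 CPM in KO CTR. These groups did not overlap, but the log2 fold change of −0.26 (95% interval −0.50 to −0.02) had an adjusted p of 0.483. *Mat1a*, *Bhmt* and *Mtr* were likewise higher in every KO CTR library than in every WT CTR library without passing the test (log2 fold changes 0.43, 0.32 and 0.44, adjusted p 0.531 to 0.679). With *Cth*, the groups did not overlap for 5 of the 10 members and for 10.9% of all genes. Of the marker sums, that of the pancreas alone was apart between these groups (11.3 to 13.8 CPM in KO CTR, 16.3 to 22.6 CPM in WT CTR). On noTrp, again *Cth* was the only member called, against 0.195% of all genes, in a comparison that has only 2 WT libraries. The groups did not overlap there for 2 members, *Cth* and *Bhmt*, and for 9.94% of all genes. The pericentral marker sum was higher in every KO noTrp library (15032 to 16192 CPM) than in both WT noTrp libraries (10632 to 14035 CPM), and the erythroid marker sum was lower (112 to 214 against 222 to 378 CPM), whose part was not tested.

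Without dietary cysteine, KO and WT differed at 28.2% of all genes, and of the 10 members *Cth* alone was called. *Cbs* did not differ detectably, with a log2 fold change of −0.09 and a 95% interval of −0.33 to 0.16. *Mat1a* was higher in every KO noCys library than in every WT noCys library, by 0.53 on the log2 scale (SE 0.21), and missed the threshold (adjusted p = 0.0618). The groups did not overlap for 2 members, *Mat1a* and *Cth*, and for 37.6% of all genes. *Mtr*, at 16 to 93 counts per library the least covered member, stood 0.70 above on the log2 scale (SE 0.27), without a call (adjusted p = 0.0631). *Bhmt* was at −0.51 on that scale (SE 0.22, adjusted p = 0.0805), and *Mat2a*, *Mat2b*, *Gnmt*, *Ahcy* and *Bhmt2* lay between −0.24 and 0.17. The median over the 10 members was −0.06, beside −0.02 over all genes tested. The calls near the threshold moved with the setting: DESeq2 also called *Mat1a* (adjusted p = 0.0407) and *Mtr* (adjusted p = 0.0431), and without KO noCys replicate 1 *Bhmt* was called at −0.94 (adjusted p = 0.00114). Without KO noCys replicate 3 or 4, *Bhmt* was instead at −0.25 (adjusted p = 0.408) or −0.44 (adjusted p = 0.223).

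**Figure D2:**
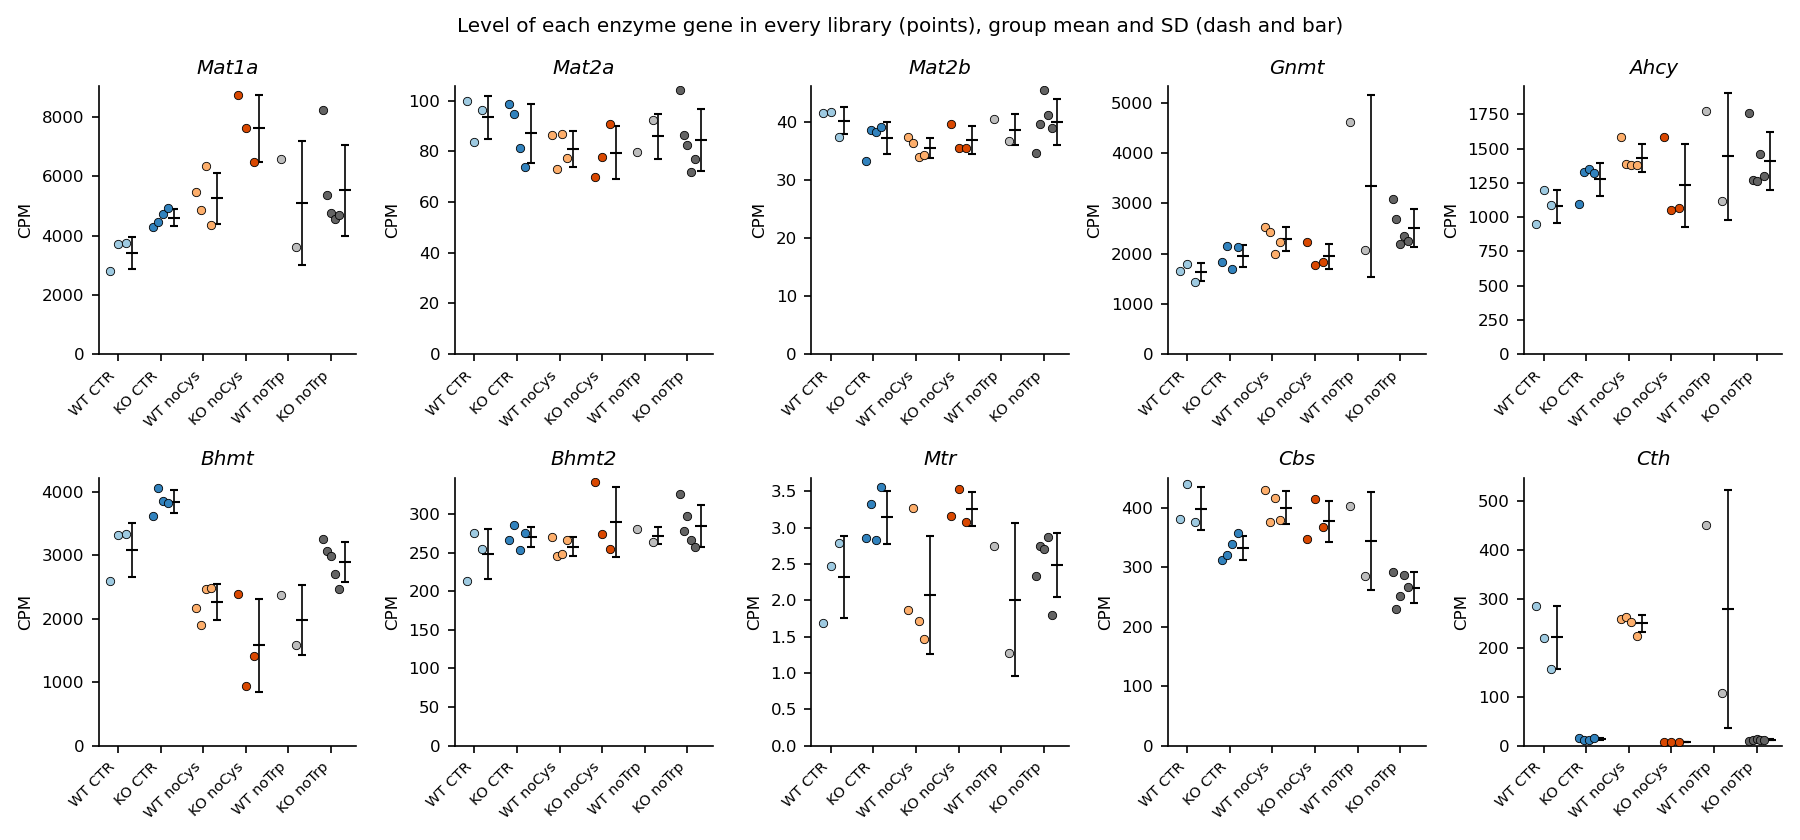
CPM of the 10 genes in every library, by group, with the group mean and SD beside the points and axes that start at 0. *Bhmt* in KO CTR (3618 to 4068 CPM) stands above all KO noCys libraries (945 to 2390 CPM), and *Mat1a* in KO noCys (6468 to 8740 CPM) stands above all KO CTR libraries (4301 to 4940 CPM).

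Removing cysteine from the diet of the knockouts lowered *Bhmt* and raised *Mat1a*. These were the 2 members called of 10, where 20.2% of all genes were called. The groups did not overlap for 3 members, these 2 and *Cth*, as for 28.6% of all genes, so that the share of members called or separated was near the background. The median log2 fold change was −0.01 over the members and 0.00 over all genes tested.

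*Bhmt* encodes betaine-homocysteine methyltransferase, which methylates homocysteine with betaine. Its values were 3618, 4068, 3864 and 3833 CPM in KO CTR and 2390, 945 and 1409 CPM in KO noCys. All 3 KO noCys libraries were below all KO CTR libraries, and replicate 1 was the highest of the 3. The log2 fold change was −1.28 (SE 0.22, adjusted p = 0.000442), 2.43-fold lower, and the call was made in all 7 fits that left out 1 library, with values of −1.71 to −1.02. In WT animals *Bhmt* went from 2590, 3317 and 3337 CPM on CTR to 2174, 1894, 2477 and 2488 CPM on noCys. These groups did not overlap either, but the log2 fold change of −0.45 (SE 0.21) was not called (adjusted p = 0.351). The difference between the changes in KO and WT was −0.83 (SE 0.30, adjusted p = 0.102), so that a larger fall in KO was not shown. In that test of genotype by cysteine diet, none of the 10 members was called, against 7.44% of all genes. By edgeR 2 of the members, and 3308 of all 14370 genes, had an unadjusted p under 0.05 there, and DESeq2 called 0. Without KO noCys replicate 1 the difference for *Bhmt* was −1.26 (adjusted p = 0.0034), and without replicate 3 it was −0.57 (adjusted p = 0.258). The hepatocyte marker sum of replicate 1 was also the highest of the 3.

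*Bhmt2* encodes a related methyltransferase that takes S-methylmethionine as methyl donor. Its values were 266, 286, 254 and 275 CPM in KO CTR and 341, 274 and 255 CPM in KO noCys, with overlap. Its log2 fold change was 0.10 (95% interval −0.13 to 0.33, adjusted p = 0.56), and over all 21 libraries it stayed between 213 and 341 CPM. The ratio of *Bhmt2* to *Bhmt* within a library, which does not depend on scaling, was 7.03% ± 0.324 in KO CTR (SD, n = 4) and 14.3%, 29% and 18.1% in KO noCys. It was 8.06% ± 0.369 in WT CTR (n = 3), 11.5% ± 1.41 in WT noCys (n = 4), 11.8% and 16.6% in WT noTrp, and 9.84% ± 0.501 in KO noTrp (n = 5).

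*Mat1a* encodes the adenosyltransferase typical of adult liver. Its values were 4301, 4455, 4714 and 4940 CPM in KO CTR and 8740, 7637 and 6468 CPM in KO noCys, with no overlap. The log2 fold change was 0.73 (SE 0.21, adjusted p = 0.0185), 1.65-fold higher. The call rests on few libraries, since it was lost without KO noCys replicate 1 (0.62, adjusted p = 0.0695) or replicate 3 (0.72, adjusted p = 0.0619). In WT animals *Mat1a* was at 2786, 3706 and 3743 CPM on CTR and at 5480, 4849, 6346 and 4355 CPM on noCys. Again the groups were apart, but the log2 fold change of 0.62 (SE 0.21) was not called (adjusted p = 0.179). The changes in KO and WT differed by 0.10 (95% interval −0.52 to 0.72, adjusted p = 0.877).

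*Mat2a*, the adenosyltransferase of most other tissues, and *Mat2b*, its regulatory subunit, had narrow ranges. *Mat2a* was at 73.6 to 98.5 CPM in KO CTR and 69.9 to 90.6 CPM in KO noCys, a log2 fold change of −0.13 (95% interval −0.40 to 0.14). *Mat2b* was at 33.2 to 39.1 CPM and 35.5 to 39.7 CPM, a log2 fold change of −0.02 (95% interval −0.21 to 0.18). Neither gene was called in any comparison. The ratio of *Mat2a* to *Mat1a* was 2.81% ± 0.701 in WT CTR (SD, n = 3), 1.91% ± 0.368 in KO CTR (n = 4), 1.56% ± 0.167 in WT noCys (n = 4) and 1.07% ± 0.304 in KO noCys (n = 3). The KO noCys libraries (0.8%, 1.02% and 1.4%) were below all KO CTR libraries (1.49% to 2.29%). They overlapped those of KO noTrp, where the ratio was 1.57% ± 0.179 (n = 5, range 1.26% to 1.73%). In WT noTrp the ratio was 1.21% and 2.56%.

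**Figure D3:**
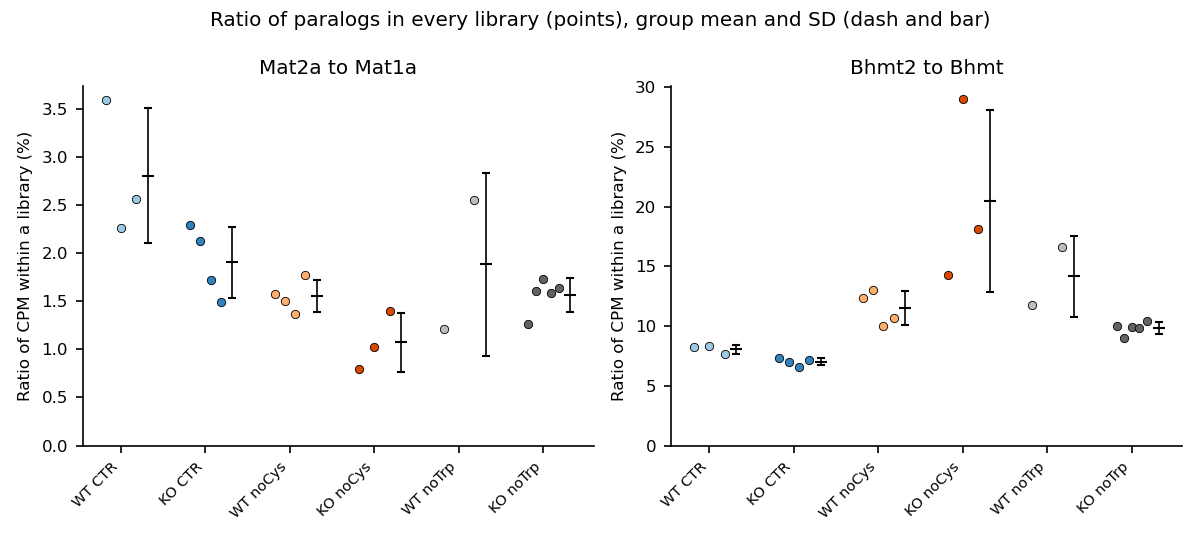
Ratio of *Mat2a* to *Mat1a* (left) and of *Bhmt2* to *Bhmt* (right) in percent within every library, by group, with the group mean and SD beside the points. The KO noCys group has the lowest mean on the left (1.07%) and the highest on the right (20.5%), with its 3 libraries spread from 14.3% to 29% on the right.

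*Gnmt*, which uses S-adenosylmethionine to methylate glycine, and *Ahcy*, which hydrolyses S-adenosylhomocysteine, did not pass the test for removal of cysteine. *Gnmt* values were 1831, 2159, 1693 and 2126 CPM in KO CTR and 2229, 1775 and 1835 CPM in KO noCys, a log2 fold change of 0.00 with a 95% interval of −0.41 to 0.40. *Ahcy* was at 1097 to 1351 CPM in KO CTR and at 1582, 1049 and 1065 CPM in KO noCys, where replicate 1 was again the highest of the 3. Its log2 fold change was −0.05 (95% interval −0.40 to 0.30). In WT animals both genes were higher in every noCys library than in every CTR library, by 0.50 for *Gnmt* and 0.41 for *Ahcy* on the log2 scale, without a call (adjusted p 0.254 and 0.273). The WT groups did not overlap for 5 members, *Mat1a*, *Bhmt* and *Mat2b* being the others, and for 16.4% of all genes. The periportal marker sum was also higher in every WT noCys library (11653 to 12723 CPM) than in every WT CTR library (8121 to 10706 CPM) and the pancreas marker sum lower (11.7 to 16 against 16.3 to 22.6 CPM), and their part in these values was not tested. For the removal of cysteine in WT, 0.661% of all genes and none of the 10 members were called by edgeR, and 4 members and 2000 of all 14370 genes had an unadjusted p under 0.05. DESeq2 called none there either.

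Removing tryptophan from the diet of the knockouts changed no member past the threshold, against 1.87% of all genes, and 3 members and 2431 of all 14370 genes had an unadjusted p under 0.05. *Bhmt* was at 2471 to 3260 CPM in KO noTrp (median 2985), below every KO CTR library, at −0.41 on the log2 scale (SE 0.19, adjusted p = 0.269). *Gnmt* was above every KO CTR library, with 0.37 (SE 0.17, adjusted p = 0.281), and *Cbs* below, with −0.33 (SE 0.10, adjusted p = 0.105). These 3 were the members whose groups did not overlap, against 6.33% of all genes. The pancreas marker sum was again the only one apart (14.8 to 23.4 CPM in KO noTrp, 11.3 to 13.8 CPM in KO CTR). DESeq2 called *Cbs* in this comparison (adjusted p = 0.0402). In WT animals, where noTrp has 2 libraries, *Gnmt* was the only member called, against 3.19% of all genes. It was at 1654, 1793 and 1438 CPM in WT CTR and at 4626 and 2070 CPM in WT noTrp. These groups did not overlap for *Gnmt* and *Bhmt*, 2 of the members, and for 30.6% of all genes. The log2 fold change of *Gnmt*, 1.04 (SE 0.23, adjusted p = 0.0189), fell to 0.35 (adjusted p = 0.455) without WT noTrp replicate 1, a fit in which the 1 library left is assumed to vary like those of the other groups. That library also had the highest *Cth* (452 CPM) of all and a periportal marker sum of 15119 CPM, against 8121 to 12723 CPM in the other 20 libraries, whose part in the result was not tested. Both WT noTrp libraries were also above every WT CTR library in the summed markers of Kupffer cells and leukocytes (252 to 278 against 102 to 182 CPM), of endothelium (129 to 156 against 86 to 126 CPM) and of periportal hepatocytes (11294 to 15119 against 8121 to 10706 CPM), and below in those of stellate cells (182 to 253 against 262 to 332 CPM), which was not tested either. The call of *Gnmt* was also lost without WT CTR replicate 1 (adjusted p = 0.0541) or 3 (adjusted p = 0.075), and when these groups were fitted alone (adjusted p = 0.236). With a block for the replicate number in the model, *Gnmt* was not called either.

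The diets were then set against each other within the knockout, a comparison that shares the KO noCys libraries with the one above. Of the 10 members 2 were called, where 13.9% of all genes were called. The summed markers of Kupffer cells and leukocytes (120 to 169 against 191 to 308 CPM), of endothelium (84.3 to 97.8 against 116 to 156 CPM) and of cholangiocytes (17.2 to 20.3 against 27 to 51.2 CPM) were lower in every KO noCys library than in every KO noTrp library, and their part in the calls was not tested. *Cbs* was at 347, 415 and 368 CPM in KO noCys and at 292, 230, 251, 287 and 267 CPM in KO noTrp, with no overlap. The log2 fold change was 0.51 (SE 0.11, adjusted p = 0.00506), 1.42-fold higher on noCys, and missed the threshold when KO noCys replicate 3 was left out (0.43, adjusted p = 0.0562). The KO CTR libraries (312 to 358 CPM) lay above all of the noTrp libraries and overlapped those of noCys. *Bhmt* was lower in every KO noCys library than in every KO noTrp library, at −0.87 on the log2 scale (SE 0.21, adjusted p = 0.00909). With *Cth* and *Mtr*, the groups did not overlap for 4 members and for 19.6% of all genes. The call of *Bhmt* was lost without KO noCys replicate 3 (−0.61, adjusted p = 0.0783) or replicate 4 (−0.80, adjusted p = 0.0521). *Mat1a* overlapped between these groups, because KO noTrp replicate 1 reached 8226 CPM against 4544 to 5376 CPM in the other 4, and its log2 fold change was 0.46 (adjusted p = 0.126). Without that library it was 0.65 (adjusted p = 0.0175).

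**Figure D4:**
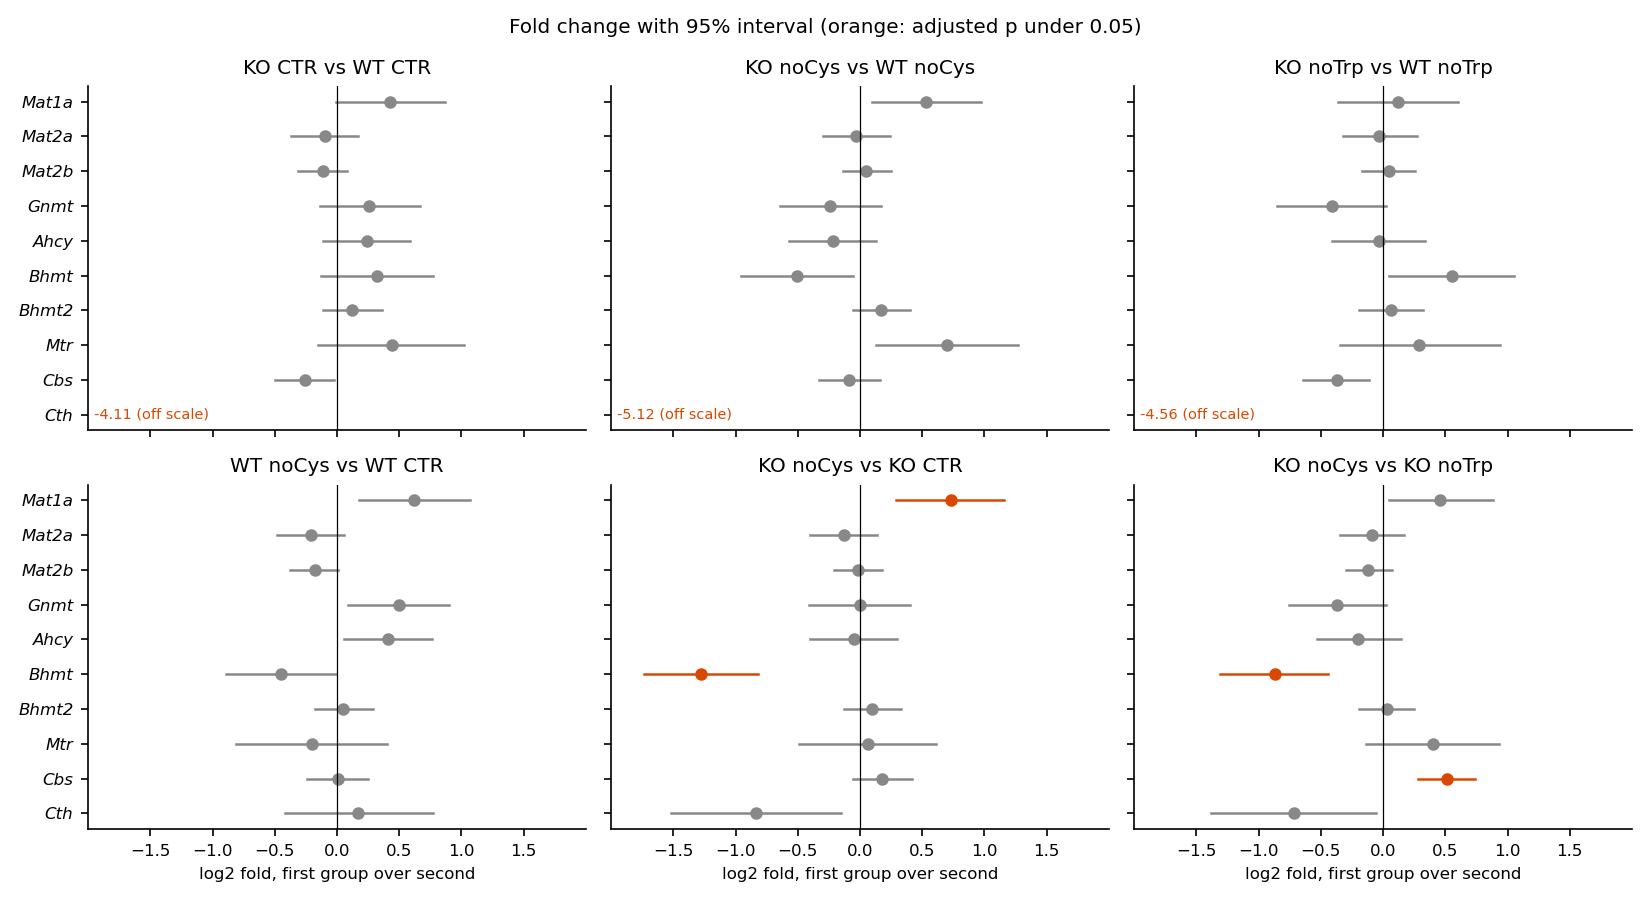
Log2 fold change with 95% interval for the 10 genes in 6 comparisons, the first-named group over the second, orange where the adjusted p was under 0.05. *Cth* is off the scale in the 3 genotype comparisons of the upper row. The other orange points are *Bhmt* and *Mat1a* in KO noCys vs KO CTR, and *Bhmt* and *Cbs* in KO noCys vs KO noTrp.

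The genes around the cycle were counted from a list of 33, all of them tested. In KO noCys vs WT noCys, 7 were called higher and 8 lower, and 18 did not pass. That is 15 of 33, where 28.2% of all genes were called, and the count was 9 without KO noCys replicate 3. The median log2 fold change over the 33 was −0.04. In both KO CTR vs WT CTR and KO noTrp vs WT noTrp, 0 of the 33 were called by edgeR and 0 by DESeq2, with 1 and 3 genes at an unadjusted p under 0.05, against 1378 and 1281 of all 14370. Of all genes, 0.32% and 0.195% were called by edgeR there, so that a count of 0 is near the background.

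Among the 5 remethylation partners and cobalamin-handling genes, 3 were higher and 1 was lower. Of all 14370 genes, 2130 were called higher and 1925 lower in this comparison. The roles hold few genes each and were listed with earlier results of these data known. *Mmachc*, which processes incoming vitamin B12, was at 20.9 ± 2.15 CPM in KO noCys and 14.1 ± 0.91 in WT noCys, higher by 0.57 on the log2 scale (SE 0.14, adjusted p = 0.00559). *Mtrr*, which reactivates methionine synthase, was higher by 0.55 (SE 0.15, adjusted p = 0.00898), lost without KO noCys replicate 3 (0.46, adjusted p = 0.0687). Of the 6 choline and betaine genes, 3 were lower and 0 higher. *Pipox*, which oxidises sarcosine and pipecolate, fell from 427 ± 19.8 CPM in WT noCys (n = 4) to 196 ± 37.2 in KO noCys (n = 3), a change of −1.13 on the log2 scale (SE 0.11, adjusted p = 8.57e-07). *Aldh7a1*, which makes betaine from betaine aldehyde, fell from 562 ± 37.1 to 341 ± 60.5 CPM, with −0.72 (SE 0.12, adjusted p = 0.000161).

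Of the 8 methyltransferases that use S-adenosylmethionine, 4 were lower and 0 higher, where 1925 of all 14370 genes were called lower and 2130 higher. *Hnmt*, which methylates histamine, was at 9.52 ± 6.31 CPM in KO noCys and 25.7 ± 2.88 in WT noCys (log2 fold change −1.50, SE 0.26, adjusted p = 0.00031). *Gamt*, the last step of creatine synthesis, was at 149 ± 44.3 and 242 ± 34.5 CPM (−0.70, SE 0.19, adjusted p = 0.00971), a call lost without KO noCys replicate 3 (−0.48, adjusted p = 0.0833). None of the 4 genes of S-adenosylhomocysteine products passed. Of the 8 polyamine and methionine salvage genes, 3 were higher and 0 lower. *Srm*, spermidine synthase, was at 79.9 ± 18 CPM in KO noCys and 39.9 ± 7.85 in WT noCys (1.00, SE 0.19, adjusted p = 0.000568). *Mri1*, which isomerises methylthioribose 1-phosphate in methionine salvage, was higher by 0.57 on the log2 scale (SE 0.11, adjusted p = 0.000627). Of the 2 genes of transport and sensing, *Mettl16*, the methyltransferase that acts on *Mat2a* RNA, was higher, by 0.58 (SE 0.13, adjusted p = 0.00292), while *Mat2a* itself had a log2 fold change of −0.03 (95% interval −0.30 to 0.24).

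**Figure D5:**
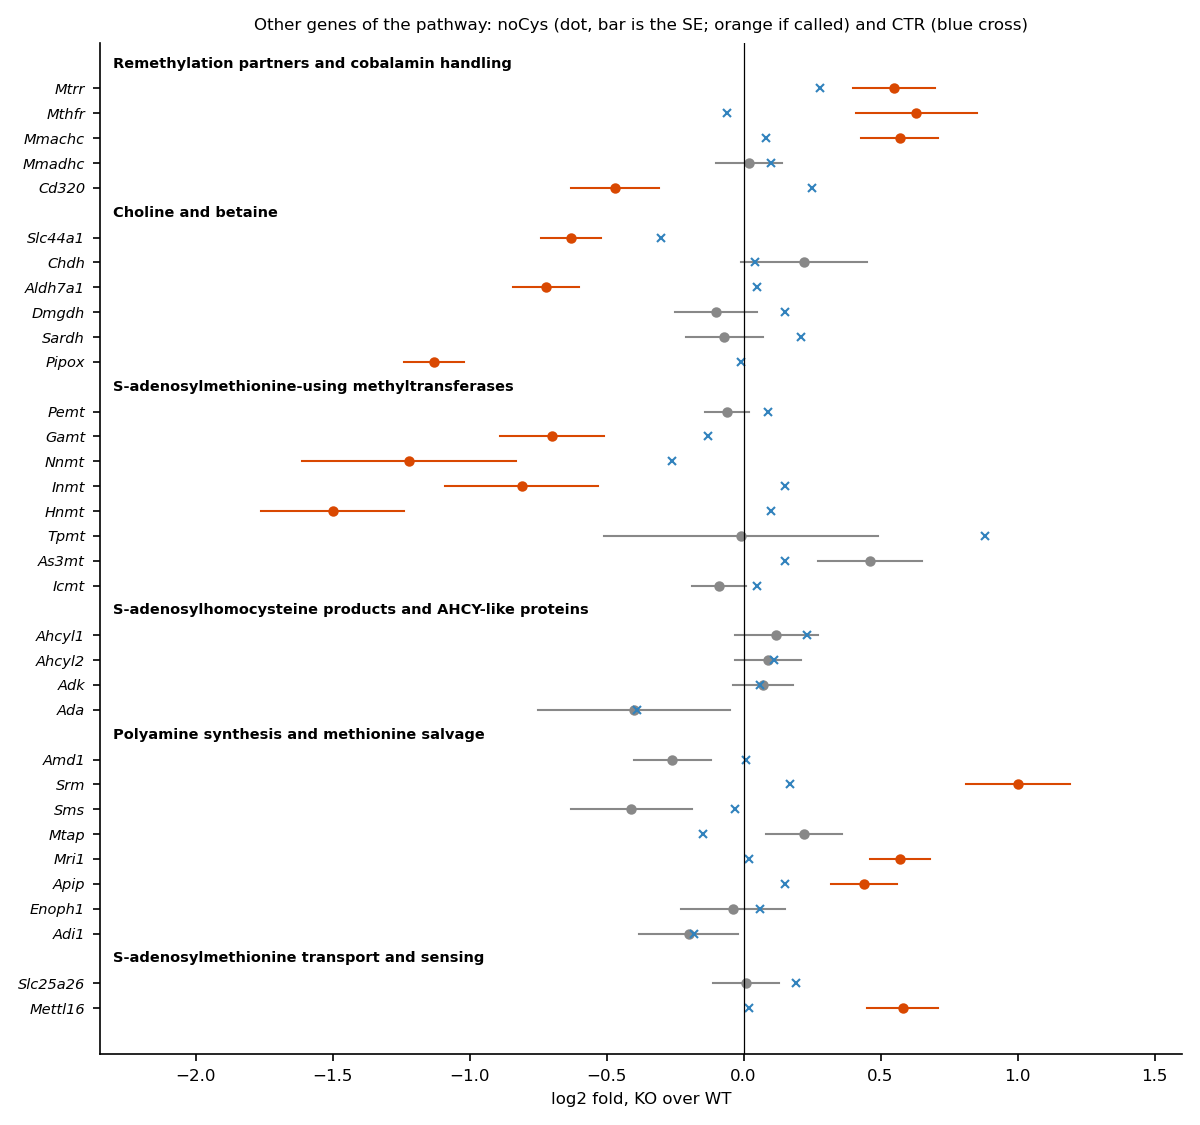
Log2 fold change of KO over WT for the 33 other genes of the pathway by role, on noCys (dots with SE, orange where the adjusted p was under 0.05) and on CTR (blue crosses). On noCys 15 dots are orange, 7 above 0 and 8 below, and on CTR 0 genes were called.

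The same 33 genes were counted in the other contrasts. Removing cysteine in the knockout raised 4 and lowered 6 of them (20.2% of all genes called), 6 in all without KO noCys replicate 3. *Hnmt* (−1.54), *Gamt* (−1.03), *Pipox* (−0.81), *Aldh7a1* (−0.72), *Srm* (0.79), *Mmachc* (0.52) and *Mettl16* (0.50) were among the 10, with adjusted p of 4.59e-05 to 0.0139. Removing cysteine in WT changed 0 of 33 by edgeR (6 at an unadjusted p under 0.05) and 0 by DESeq2, where edgeR called 0.661% of all genes. The difference between these changes was called for 4 genes, *Hnmt* (−1.61, SE 0.36, adjusted p = 0.00994), *Pipox* (−1.12, SE 0.15, adjusted p = 0.000269), *Aldh7a1* (−0.78, SE 0.16, adjusted p = 0.00736) and *Mri1* (0.55, SE 0.15, adjusted p = 0.0325), where 7.44% of all genes were called. The call of *Mri1* was lost in 8 of the 14 fits that left out 1 library. In KO noCys vs KO noTrp, 4 of the 33 were called higher and 7 lower, where 13.9% of all genes were called. Without KO noCys replicate 3, 0 were called higher and 3 lower there.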

How the data were processed

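The deposited table holds raw counts per gene, which the authors made from paired reads with HISAT2 2.1.0 and HTSeq 0.11.0 on GRCm38; the annotation release, the strand setting and the handling of multiply mapped reads are not given in the sources used here. Of 22 columns, 1 matched no sample and was not used. Groups and replicate numbers came from the sample titles. GENCODE M21 held 45229 of the 46078 identifiers, and the 849 others held 0.0536% of counts.

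Counts were fitted with edgeR 4.0.16 (R 4.3.3): filterByExpr (minimum count 10, minimum total 15), TMM (factors 0.883 to 1.14), a model with 1 mean for each of the 6 groups over all 21 libraries, and the two-sided quasi-likelihood F-test. The common biological coefficient of variation was 0.186. Adjusted p is Benjamini-Hochberg over 14370 genes, and a gene was called under 0.05. SE is the log2 fold change over the root of F, and intervals are 95%. DESeq2 1.42.0 was the alternative tool, and adjusted p values are edgeR's unless DESeq2 is named. The other alternatives were RLE size factors, library totals alone, no filter, a fit of the compared groups only, a block for the replicate number, and leaving out every library in turn. The scripts were tested on simulated counts.

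The members, gene lists and markers were chosen with earlier results of these data known. All 10 members were named in every comparison. Of the 33 other genes, those named had, for each role, up to the 2 smallest adjusted p among those called in KO noCys vs WT noCys, plus any called between genotypes on the other diets. The p-values measure the spread between libraries. No result of the authors' own tests was used. 1 further gene of the pathway list is not reported here.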

Additional observations from a re-analysis of the deposited data

Results flagged for a closer look

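In groups of 4 or 5 libraries, 30 sets of values were checked for a highest or lowest library whose gap to its nearest neighbour, divided by the group's range, was above Dixon's 95% critical value for a group of that size, and 4 were found. Chance flags about 1 in 20 groups, and nothing was weighed for these. *Mat1a* in KO noTrp replicate 1 was at 8226 CPM, above 4544 to 5376 CPM in the other 4 libraries. *Mat2b* in KO CTR replicate 1 was at 33.2 CPM, below 38.3 to 39.1 CPM in the other 3. *Ahcy* in the same library was at 1097 CPM, below 1325 to 1351 CPM. *Ahcy* in WT noCys replicate 1 was at 1584 CPM, above 1378 to 1389 CPM. The groups of 2 and 3 libraries, KO noCys among them, were not examined in this way.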

How the results depend on the processing

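Depth limits *Mtr* most (16 to 93 counts per library), and the WT noTrp group of 2 limits every comparison it enters. None of the 1250 alternative fits of a member turned the direction of a call: 1218 stayed on the same side of the threshold, 10 lost a call and 22 gained one. The number of members called in KO noCys vs WT noCys, 1, became 4 with library totals alone, 2 when only the compared groups were fitted and 3 with DESeq2. In KO noCys vs KO CTR 2 became 3 with no filter, with the compared groups only and with DESeq2 (*Cth* each time), and in KO noCys vs KO noTrp 2 became 3 with library totals alone (*Mat1a*) and with the compared groups only (*Cth*). In KO noTrp vs KO CTR 0 became 1 with DESeq2. In WT noTrp vs WT CTR 1 (*Gnmt*) became 0 with the replicate block and 0 with the compared groups only. In the test of genotype by cysteine diet 0 became 1 with the compared groups only (*Cth*). The causes were not tested. Leaving out 1 library gave 1 to 1 members called in KO CTR vs WT CTR, 1 to 2 in KO noCys vs WT noCys, 1 to 3 in KO noTrp vs WT noTrp, 1 to 2 in KO noCys vs KO CTR, 0 to 0 in KO noTrp vs KO CTR and in WT noCys vs WT CTR, 0 to 3 in WT noTrp vs WT CTR, 0 to 3 in KO noCys vs KO noTrp and 0 to 1 for genotype by cysteine diet. In WT noTrp vs WT CTR and KO noTrp vs WT noTrp the 3 came without WT noTrp replicate 2, which leaves 1 library in that group, assumed to vary like those of the other groups. For the other pathway genes called it gave 9 to 15 in KO noCys vs WT noCys and 6 to 12 in KO noCys vs KO CTR. Scaling by library totals alone moved the median log2 fold change of all genes to 0.20 in KO noCys vs WT noCys, to 0.13 in KO noCys vs KO CTR and to 0.16 for genotype by cysteine diet, and the share of calls that were higher from 52.5% to 80% in the first of these, from 52.6% to 73.7% in the second and from 47.9% to 72.6% in the third. Libraries of the same number correlated between −0.355 and 0.353, not all above 0.1, so the numbers were not taken as pairs; beside the call above, the replicate block changed no count of members. Over all genes, calls went from 46 to 10 with the block, 6 with the compared groups only, 154 with no filter and 127 with DESeq2 in KO CTR vs WT CTR. They went from 95 to 14, 396, 269 and 316 in WT noCys vs WT CTR under the same settings. In KO noTrp vs WT noTrp they went from 28 to 4 with the compared groups only, 101 with no filter and 117 with DESeq2, in KO noTrp vs KO CTR from 269 to 136 with the compared groups only and 607 with DESeq2, in WT noTrp vs WT CTR from 459 to 191 with the block, 3 with the compared groups only and 805 with DESeq2, and in KO noCys vs KO noTrp from 2000 to 1302 with the block. Per kb of all exons, levels in WT CTR were 79.4 CPM for *Cth*, 53.2 for *Cbs*, 20.8 for *Mat2a*, 8.06 for *Mat2b*, 1350 for *Gnmt* and 535 for *Bhmt*, and per kb of the longest coding transcript, a length added after the data were seen, 19.6 for *Mat2b* and 1238 for *Bhmt*. The count of the pathway genes was recomputed after the data were seen.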

Other observations

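*Slc44a1*, a choline transporter, was the only gene of the 33 around the cycle that was called when tryptophan was removed from the diet of WT animals. It was chosen after its values were seen. It was lower in WT noTrp vs WT CTR, at −0.55 on the log2 scale (SE 0.13, adjusted p = 0.0228, edgeR), where 3.19% of all genes were called, and in KO noCys vs WT noCys, at −0.63. WT noTrp has 2 libraries. There, 0 of the 33 were called with no filter, the replicate block or the compared groups only, or without WT CTR replicate 2 or 3. With RLE size factors, library totals alone, DESeq2 or without WT CTR replicate 1, 1 was called, lower. The part of the marker sums apart between these groups was not tested. Removing tryptophan in the knockout changed 0 of the 33 by edgeR, with 4 at an unadjusted p under 0.05, and 2 by DESeq2, where edgeR called 1.87% of all genes and DESeq2 607 of 14370.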
